A study of Mus musculus with 6 samples.

Results

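The constitutive subunits of the proteasome were examined in RNA of isolated mouse heart muscle cells, in 3 libraries from AKG-injected mice and 3 Control libraries from mice given phosphate-buffered saline. Members were the rows whose gene symbol is Psma, Psmb, Psmc or Psmd followed by a number, without the immunoproteasome and thymoproteasome subunits Psmb8, Psmb9, Psmb10 and Psmb11. This gave 35 of the 22063 genes in the table, 15 in the core particle and 20 in the regulatory particle. AKG is α-ketoglutarate, a metabolite of the tricarboxylic acid cycle, injected each day at 300 mg per kg for 2 weeks. The labels gave wild-type genotype for all mice and postnatal day 21 both for the injected animals and for cell isolation, so it is not clear how old the mice were when dosing began or when cells were taken. Cells came from whole hearts by Langendorff perfusion, and the labels named no sort. Whether a library held 1 mouse or a pool was not stated in the labels, so p-values measured only the spread between libraries.

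The proteasome is the large protease that destroys proteins tagged with ubiquitin. Its core particle is a barrel of stacked α and β rings with the cutting sites on the inner face of 3 β subunits, and the α rings gate the entry. The regulatory particle caps the barrel, where its lid and base bind and remove ubiquitin and a ring of ATPases unfolds the substrate and feeds it in. In heart muscle this machine takes part in the turnover of contractile proteins, and the transcription factor NFE2L1 is known to raise the transcription of subunit genes when proteasome activity is blocked. A complete particle needs its subunits in fixed proportion, and most positions are served by a single subunit gene outside the immune and tissue-restricted forms.

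Totals ranged from 14402876 to 15315236 counts in AKG libraries and from 16241120 to 17797368 in Control libraries, and members took 0.239 to 0.263% of counts in AKG libraries against 0.207 to 0.223% in Control libraries. Of counts that were not mitochondrially encoded, members took 0.348 to 0.358% in AKG and 0.360 to 0.363% in Control libraries, so the direction turned. Levels are CPM (counts scaled to the library's size) after TMM normalization (trimmed mean of M-values), so a rise or a fall is relative to the bulk of genes. The mitochondrially encoded share of counts was 25.7 to 31.4% in AKG libraries and 38.3 to 43.1% in Control libraries. Scaling by total counts in place of TMM shifted the median over all genes up by 0.45 on the log2 scale, while the ratio of counts between subunits within a library does not depend on the scaling. The labelled cell type had its markers: 8 cardiomyocyte markers summed to 24923 to 28923 CPM in AKG libraries and 49468 to 53679 CPM in Control libraries, and 6 of them fell with TMM. Among other cell types, 8 fibroblast markers summed to 2377 to 3121 against 2604 to 3260 CPM (AKG against Control), 8 endothelial markers to 1529 to 1806 against 1429 to 1546 CPM and 8 smooth muscle and pericyte markers to 1028 to 1228 against 2041 to 2222 CPM. Macrophage markers (8) summed to 63.7 to 90.6 against 107 to 161 CPM, neutrophil markers (8) to 6.18 to 13.04 against 0.957 to 1.63 CPM and lymphocyte markers (8) to 1.55 to 3.04 against 5.3 to 9.19 CPM, and none of the markers was at 0 counts in all libraries. Of those tested, 2 fibroblast markers rose and 3 fell, 3 endothelial rose and 2 fell, 5 smooth muscle, 4 macrophage and 2 lymphocyte markers fell, and 4 neutrophil markers rose, all with TMM. With total counts 2 cardiomyocyte markers were higher and 5 lower, 3 fibroblast higher and 1 lower, 6 endothelial higher, 2 smooth muscle higher and 2 lower, 1 macrophage higher and 2 lower, 2 lymphocyte lower and 4 neutrophil higher. Of 3 atrial markers tested, 0 were called with TMM and 2 were higher with total counts. Over all genes 25.0% rose and 25.2% fell with TMM, and 56.7% rose and 9.12% fell with total counts. Transcripts of 5 atrial markers summed to 359 and 220 CPM in AKG 1 and AKG 3, against 7.58 CPM in AKG 2 and 6.4 to 12.05 CPM in Control libraries. Those of 4 Y-linked genes summed to 39.0 to 89.2 CPM in AKG libraries and to 168, 0.311 and 176 CPM in Control 1, 2 and 3. Control 2 thus held almost no RNA of male cells, and the sex make-up differed between libraries. Its part in the results below was not tested. In AKG 2, the AKG library low in atrial transcripts, summed transcripts of the core particle stood at 868 CPM. Control libraries had 1128 to 1192 CPM. The part of the other cell types in the results below was not tested, and fewer cells of a type cannot be told apart from less RNA per cell.

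The 5 subunit genes whose call held under every alternative setting are shown by the 250 bases upstream of their RefSeq start (GRCm38.p6). They are the core genes Psmb5, Psmb6 and Psmb3, which fell, the ATPase gene Psmc5, which fell, and the ubiquitin receptor gene Psmd4, which rose. Capitals mark matches on either strand to TGACNNNGC, the element bound by NFE2L1 and NFE2L2, or to CCAAT, the box bound by NF-Y, and no marked matches overlap. They lie at chr14:54617996-54618245 on the minus strand for Psmb5, at chr11:70525107-70525356 on the plus strand for Psmb6, at chr11:97703184-97703433 on the plus strand for Psmb3, at chr11:106255935-106256184 on the plus strand for Psmc5 and at chr3:95042615-95042864 on the minus strand for Psmd4, each written 5′ to 3′ along its gene.
Psmb5: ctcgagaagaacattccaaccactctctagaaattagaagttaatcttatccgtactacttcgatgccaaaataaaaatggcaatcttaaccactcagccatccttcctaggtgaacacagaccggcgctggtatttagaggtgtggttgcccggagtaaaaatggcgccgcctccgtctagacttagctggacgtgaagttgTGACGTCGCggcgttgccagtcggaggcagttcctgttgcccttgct
Psmb6: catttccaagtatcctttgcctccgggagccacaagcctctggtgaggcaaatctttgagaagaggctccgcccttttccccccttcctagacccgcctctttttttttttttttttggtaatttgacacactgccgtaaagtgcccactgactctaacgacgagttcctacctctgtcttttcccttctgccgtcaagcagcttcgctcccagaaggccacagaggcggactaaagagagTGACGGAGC
Psmb3: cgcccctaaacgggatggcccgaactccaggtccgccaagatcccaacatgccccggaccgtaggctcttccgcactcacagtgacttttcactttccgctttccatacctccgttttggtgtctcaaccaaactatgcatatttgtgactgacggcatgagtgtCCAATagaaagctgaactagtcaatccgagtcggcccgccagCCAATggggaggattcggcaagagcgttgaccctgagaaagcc
Psmc5: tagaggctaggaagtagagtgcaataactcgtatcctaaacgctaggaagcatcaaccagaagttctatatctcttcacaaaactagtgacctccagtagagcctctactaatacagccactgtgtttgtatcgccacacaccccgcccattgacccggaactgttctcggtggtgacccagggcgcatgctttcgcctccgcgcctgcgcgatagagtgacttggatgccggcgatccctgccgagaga
Psmd4: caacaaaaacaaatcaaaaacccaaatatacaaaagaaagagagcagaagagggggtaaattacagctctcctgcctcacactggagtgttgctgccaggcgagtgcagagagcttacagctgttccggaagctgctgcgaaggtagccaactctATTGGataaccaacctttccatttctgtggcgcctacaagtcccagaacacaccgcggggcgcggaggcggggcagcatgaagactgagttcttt

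Psmb5 and Psmb6 each held TGACNNNGC, starting 47 and 9 bases before the start, and Psmb3 held CCAAT at 85 and 43 bases before it. Psmd4 held CCAAT on the opposite strand, 95 bases before its start, and neither motif was found in the window of Psmc5. Among the 28 of 35 members matched by symbol to the promoter table, 5 held TGACNNNGC (17.9%) and 11 held CCAAT (39.3%), against 10.2% and 33.8% of all 32851 promoter windows of this length. In the core particle 2 of 11 held TGACNNNGC and 6 of 11 CCAAT, and in the regulatory particle 3 of 17 and 5 of 17. These counts describe letters in the windows and were not tested.

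Relative to the bulk of genes, AKG libraries held less transcript of the core particle, above all of its β ring. The regulatory particle showed no common direction, much like genes at large. With TMM 11 of its 20 genes did not pass the threshold, 6 fell and 3 rose, beside 25.2% fallen and 25.0% risen of all genes. The falls of both particles depended on the scaling. In edgeR (quasi-likelihood, Benjamini-Hochberg over 13117 genes), 17 of 34 tested members fell and 3 rose (threshold 0.05), while with total counts as the scaling 4 fell and 18 rose. Over all genes 25.2% fell and 25.0% rose with TMM, and 9.12% fell and 56.7% rose with total counts. By particle, 11 of 14 tested core members fell and 0 rose with TMM, against 3 fallen and 3 risen with total counts. The 0 also held at an unadjusted p under 0.05 and with DESeq2 and limma-voom. In the regulatory particle 6 of 20 fell and 3 rose with TMM, against 1 and 15 with total counts. The median log2 fold change was -0.42 for the core and -0.00 for the regulatory particle, beside 0.00 for all genes, and these medians were 0.02 and 0.44 with total counts. All AKG libraries lay below all Controls for 20 of the 34 members and above them for 5, where 29.9% and 29.4% of all tested genes did so.

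**Figure D1:**
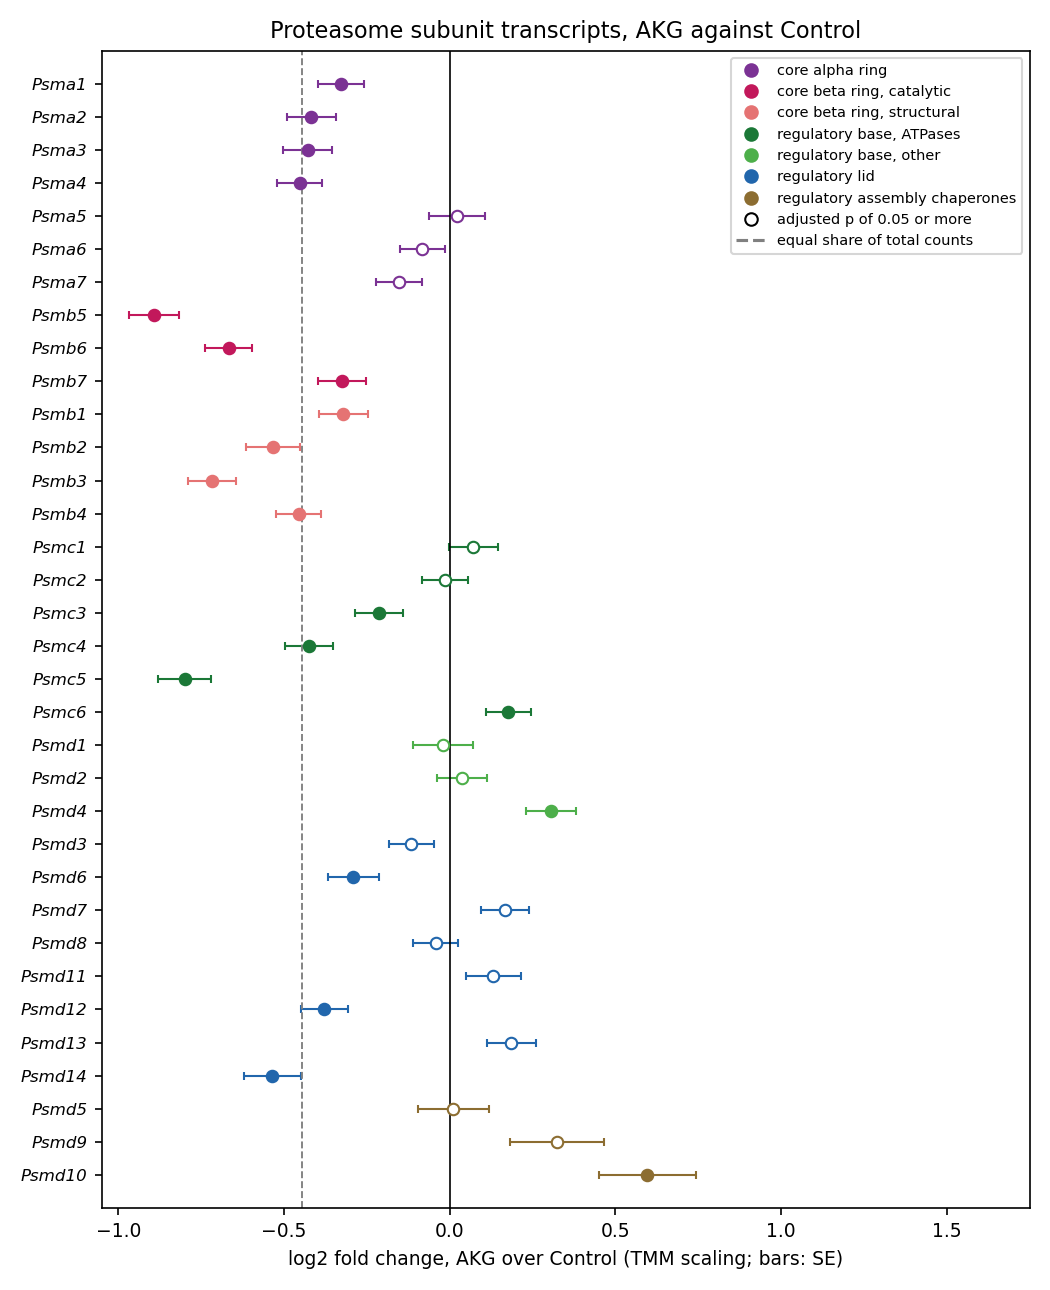
Log2 fold change of each tested subunit, AKG over Control with TMM scaling, with SE bars worked back from the edgeR test and open circles where the adjusted p was 0.05 or more. The dashed line lies 0.45 below 0, about where a gene's share of total counts would be equal in both groups, so 11 core genes are called left of 0 here, and only points clearly left of the dashed line (Psmb5, Psmb6, Psmb3 and Psmc5) were also lower with total counts.

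The balance between the particles differed in the same direction in every library. Summed core transcripts stood at 894, 868 and 859 CPM in AKG 1, 2 and 3, against 1168, 1128 and 1192 CPM in Control 1, 2 and 3. Summed regulatory transcripts stood at 1258, 1267 and 1295 CPM in AKG libraries, against 1314, 1340 and 1346 CPM in Control libraries. Both sums were lower in all AKG libraries, and the gap between groups was larger for the core (a ratio of the means of 0.751) than for the regulatory particle (0.955). As shares of total counts the core took 0.102% in AKG and 0.0996% in Control libraries, with overlap, and the regulatory particle 0.149% and 0.114%, without overlap. The ratio of core to regulatory counts was 0.71, 0.685 and 0.663 in AKG libraries and 0.889, 0.842 and 0.885 in Control libraries, and does not depend on the scaling. Summed over the authors' FPKM, which is per length, this ratio was 1.12, 1.09 and 1.06 in AKG libraries and 1.42, 1.33 and 1.41 in Control libraries. On both measures the groups did not overlap, and no p is given for a sum over chosen genes.

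**Figure D2:**
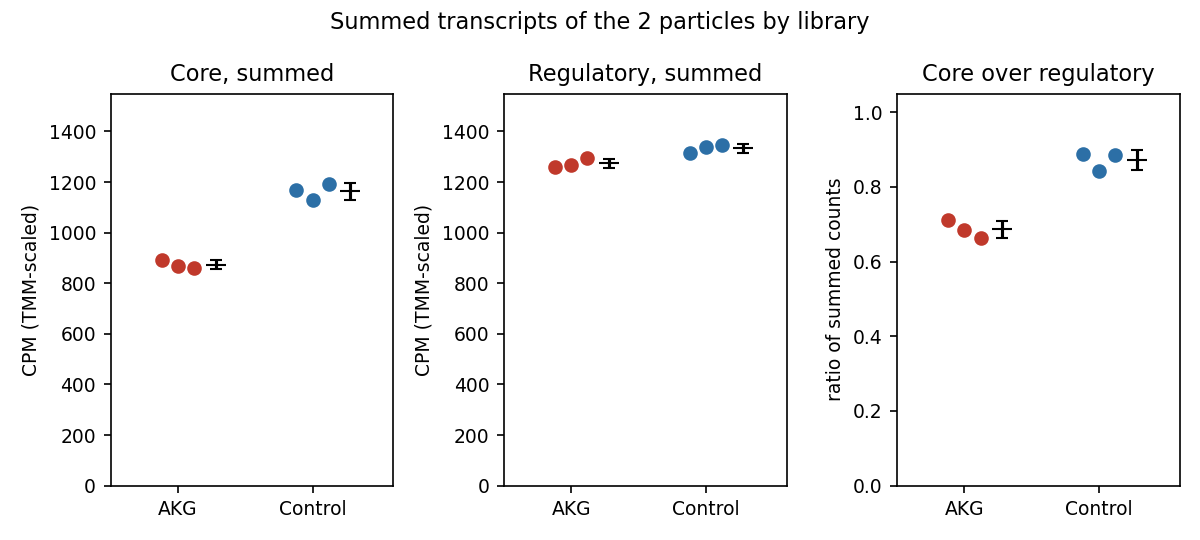
Summed TMM-scaled CPM of the core and the regulatory particle and the ratio of their summed counts, with 1 point per library and the mean and SD (n = 3) beside the points. The ratio lies between 0.663 and 0.71 in AKG libraries and between 0.842 and 0.889 in Control libraries.

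The catalytic β subunits, which carry the cutting sites, fell unequally: all 3 fell with TMM, and Psmb5 and Psmb6 but not Psmb7 with total counts. Of all genes 25.2% fell with TMM and 9.12% with total counts. Psmb5 (ENSMUSG00000022193), the subunit with chymotrypsin-like activity, stood at 44.6, 48 and 45.6 CPM in AKG libraries, against 84.2, 81.7 and 90.6 CPM in Control libraries. It had the lowest log2 fold change of all members, at -0.89 (SE 0.0746, a fold of 0.539, edgeR adjusted p = 6.31e-07), and was lower in every AKG library. Psmb6 (ENSMUSG00000018286), with caspase-like activity, stood at 63.9, 67 and 61 CPM in AKG libraries and at 104, 97.8 and 103 CPM in Control libraries. Its log2 fold change was -0.67 (SE 0.0714, edgeR adjusted p = 5.58e-06). Psmb7 (ENSMUSG00000026750), with trypsin-like activity, stood at 77.6, 73.3 and 78.2 CPM in AKG libraries and at 92.4, 93.3 and 102 CPM in Control libraries. It fell least of these, by 0.33 on the log2 scale (edgeR adjusted p = 0.00201), and its sign turned positive with total counts as the scaling. The ratio of Psmb5 to Psmb7 counts, free of scaling, was 0.574, 0.655 and 0.582 in AKG libraries and 0.911, 0.875 and 0.893 in Control libraries. Transcripts of these catalytic subunits were thus not in the same proportion to each other in the groups, and protein was not measured. This pair, like the other pairs within a class below, sets the lowest and the highest fold change of its class against each other. A gap between the groups is therefore partly built in by the choice, and a rate over other gene pairs was not worked out.

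**Figure D3:**
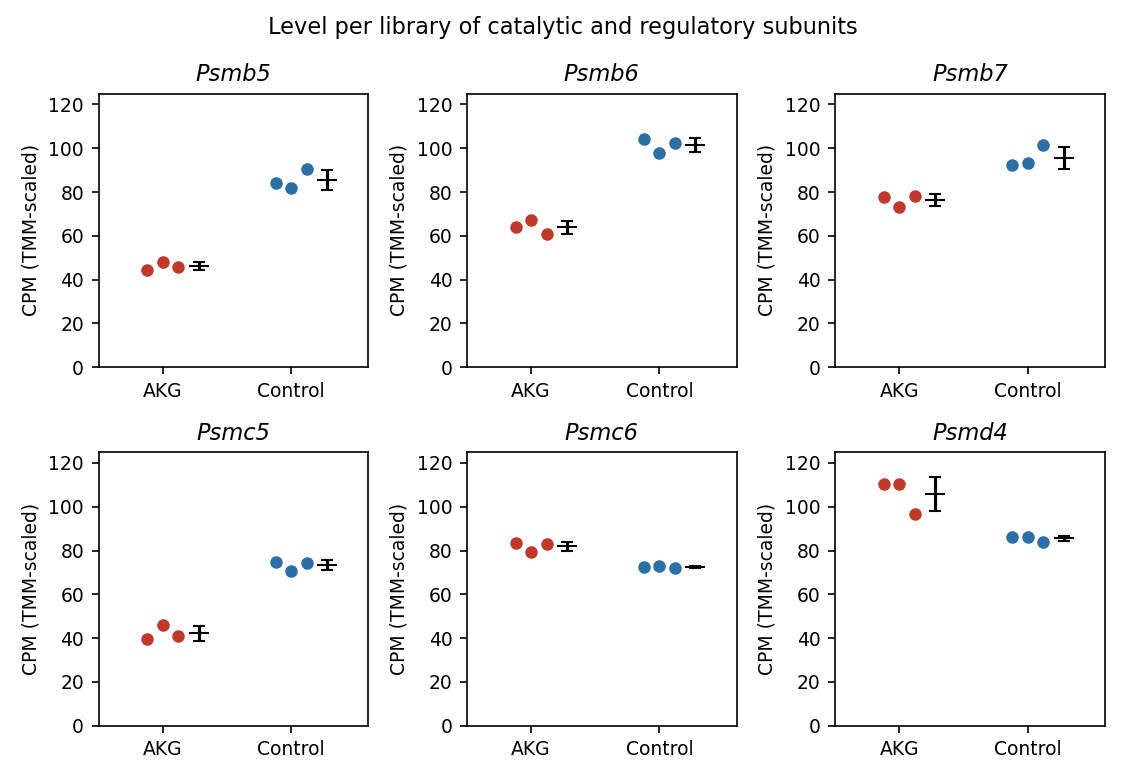
TMM-scaled CPM of the 3 catalytic subunits Psmb5, Psmb6 and Psmb7, the ATPases Psmc5 and Psmc6 and the ubiquitin receptor Psmd4, with 1 point per library and the mean and SD (n = 3) beside the points. Groups do not overlap in any panel: AKG lies below Control for the catalytic subunits and Psmc5 and above it for Psmc6 and Psmd4, while with total counts as the scaling Psmb7 has the opposite sign.

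The other β subunits, which complete the ring without a cutting site, fell as well with TMM, all 4 of them, while with total counts only Psmb3 was lower. The shares of all genes that fell were 25.2% and 9.12%. Psmb3 (ENSMUSG00000069744) stood at 48.6, 44.4 and 47.6 CPM in AKG libraries and at 78.9, 74.6 and 77.7 CPM in Control libraries. Its log2 fold change was -0.72 (SE 0.073, edgeR adjusted p = 3.55e-06). Psmb1 had the smallest change of the ring, at 86.1, 81.8 and 75.6 CPM in AKG libraries and 101, 99.8 and 104 CPM in Control libraries (log2 fold change -0.32, edgeR adjusted p = 0.00249, and 0.12 with total counts). Psmb2 and Psmb4 lay between these, at log2 fold changes of -0.53 and -0.46. The ratio of Psmb3 to Psmb1 counts, a pair picked in the same way, was 0.565, 0.543 and 0.629 in AKG libraries and 0.785, 0.748 and 0.748 in Control libraries.

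The α ring, which forms the gate of the barrel, was split by the threshold. With TMM Psma1, Psma2, Psma3 and Psma4 fell while Psma5, Psma6 and Psma7 were not past it. With total counts the first group was not past it while the second was higher, as were 56.7% of all genes. With TMM 25.2% of all genes fell. Psma4 (ENSMUSG00000032301) had the lowest log2 fold change of the ring, -0.45 (SE 0.0684, edgeR adjusted p = 0.000105), at 67.9, 69.4 and 64.6 CPM in AKG libraries and 92.1, 91.4 and 93 CPM in Control libraries. Psma1, Psma2 and Psma3 had values of -0.33, -0.42 and -0.43. Psma5 (ENSMUSG00000068749) stood at 47.9, 42.9 and 44.2 CPM in AKG libraries and 45, 40.7 and 47.4 CPM in Control libraries, with overlapping groups and a log2 fold change of 0.02 (edgeR adjusted p = 0.845). The ratio of Psma4 to Psma5 counts was 1.42, 1.62 and 1.46 in AKG libraries and 2.05, 2.25 and 1.96 in Control libraries. Psma6 and Psma7 had log2 fold changes of -0.08 and -0.15 with edgeR adjusted p = 0.329 and 0.0835. Unlike Psma5, both lay below all Controls in all AKG libraries by TMM-scaled CPM, as did 29.9% of all tested genes.

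Psma8 (ENSMUSG00000036743), the α subunit of spermatogenic cells and a paralog of Psma7, did not pass the low-count filter. It had 10, 3 and 9 counts in AKG 1, 2 and 3 and 10, 0 and 6 counts in Control 1, 2 and 3, and the 0 in Control 2 allows up to 0.186 CPM (a floor of 3 counts, counting error only). No fold is given, and the core counts above rest on the other 14 members.

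In the base of the regulatory particle, the 6 ATPases that form the unfolding ring did not share a direction. With TMM Psmc3, Psmc4 and Psmc5 fell and Psmc6 rose, where 25.2% of all genes fell and 25.0% rose. With total counts only Psmc5 was lower and Psmc1, Psmc2, Psmc3 and Psmc6 were higher, where 9.12% of all genes were lower and 56.7% higher. Psmc5 (ENSMUSG00000020708) stood at 39.7, 45.8 and 40.8 CPM in AKG libraries and at 74.9, 70.6 and 74.5 CPM in Control libraries. Its log2 fold change of -0.80 (SE 0.079, edgeR adjusted p = 2.74e-06) was the lowest of the regulatory particle. Psmc6 (ENSMUSG00000021832) stood at 83.4, 79.5 and 82.8 CPM in AKG libraries and at 72.3, 73 and 72.1 CPM in Control libraries. Its rise of 0.18 on the log2 scale was near the threshold (SE 0.0673, edgeR adjusted p = 0.0425) and the call was lost in 9 of 18 alternatives, with adjusted p up to 0.21. The ratio of Psmc5 to Psmc6 counts was 0.477, 0.577 and 0.492 in AKG libraries and 1.03, 0.968 and 1.03 in Control libraries, although both serve the same ring. Psmc4 had a log2 fold change of -0.42, Psmc3 of -0.21, Psmc2 of -0.01 and Psmc1 of 0.07. The call of Psmc3 (edgeR adjusted p = 0.0243) was lost without AKG replicate 1 or 2 and without Control replicate 1 or 3, with a highest adjusted p of 0.101.

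The rest of the base holds the scaffolds Psmd1 and Psmd2, on which shuttles and enzymes dock, and the ubiquitin receptor Psmd4. Psmd4 (ENSMUSG00000005625) stood at 110, 110 and 96.6 CPM in AKG libraries and at 86.3, 86.3 and 84.1 CPM in Control libraries. It rose by 0.31 on the log2 scale (SE 0.0754, a fold of 1.24, edgeR adjusted p = 0.00405), and it was higher in every alternative. Psmd1 stood at 65.2, 61.9 and 77.8 CPM in AKG libraries and at 64.9, 73.4 and 69.6 CPM in Control libraries, with overlap (log2 fold change -0.02, and 0.43 with total counts). Psmd2 had a log2 fold change of 0.04. Psmd4 over Psmd1, the highest and the lowest of this class, had count ratios of 1.69, 1.78 and 1.24 in AKG libraries. In Control libraries these were 1.33, 1.18 and 1.21, so the groups overlapped. Set against the catalytic subunit, Psmd4 had 2.48, 2.3 and 2.12 counts per count of Psmb5 in AKG libraries and 1.03, 1.06 and 0.928 in Control libraries. That last pair sets a called rise against the lowest fold change of all members, so its gap is largely built in by the choice.

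The lid carries the deubiquitinating enzyme that removes the ubiquitin chain from the substrate. With TMM 3 of its 8 genes fell, beside 25.2% of all genes, and with total counts 5 rose, beside 56.7% of all genes. The enzyme itself, Psmd14 (ENSMUSG00000026914), stood at 28.8, 27.7 and 26.1 CPM in AKG libraries and at 39.1, 41.7 and 39 CPM in Control libraries. Its log2 fold change was -0.53 (SE 0.0848, edgeR adjusted p = 0.000157). The value with total counts was -0.09 and not past the threshold. Psmd12 and Psmd6, scaffold subunits of the lid, had log2 fold changes of -0.38 and -0.29 (edgeR adjusted p = 0.000531 and 0.00634), which were 0.07 and 0.15 with total counts. Psmd13, another lid scaffold, stood highest of the class in log2 fold change, at 55.6, 54.4 and 53.3 CPM in AKG libraries and 45.7, 50.3 and 47.5 CPM in Control libraries. Its groups did not overlap, and its log2 fold change of 0.19 missed the threshold (edgeR adjusted p = 0.0523). Psmd7, the partner with which Psmd14 forms its active pair, had a log2 fold change of 0.17 (edgeR adjusted p = 0.0692), so its sign was opposite to that of Psmd14. The ratio of Psmd14 to Psmd13 counts was 0.519, 0.509 and 0.491 in AKG libraries and 0.854, 0.828 and 0.822 in Control libraries. Psmd3, Psmd8 and Psmd11 had log2 fold changes of -0.12, -0.04 and 0.13 and were not past the threshold.

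Psmd5, Psmd9 and Psmd10 carry the family name but are chaperones that help assemble the base and leave before the particle is complete. Psmd10 (ENSMUSG00000031429), also called gankyrin and X-linked, stood at 10.8, 10.1 and 11.3 CPM in AKG libraries and at 7.42, 7.89 and 5.96 CPM in Control libraries. Its rise of 0.60 on the log2 scale was the highest of all members (SE 0.146, edgeR adjusted p = 0.00384), from low levels. With AKG 2 alone against the 3 Controls its adjusted p was 0.0581. Psmd5 stood at 17.3, 17.4 and 14.9 CPM in AKG libraries and at 17.2, 15.7 and 16.3 CPM in Control libraries, with overlap (log2 fold change 0.01), and Psmd9 had a log2 fold change of 0.32 (edgeR adjusted p = 0.0712). Without the chaperones the median of the regulatory particle was -0.02.

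Shares within the proteasome can be compared without any scaling between libraries. Each member was expressed as a percentage of the summed counts of all 35 members, so that a lower share of some members raises that of others. By this measure 11 of 14 tested core members had lower shares in all AKG than in all Control libraries and 2 had higher ones, and 12 of 20 regulatory members had higher shares and 4 lower ones. By TMM-scaled CPM, 13 core members lay below Control in all AKG libraries and 0 above, and 7 regulatory members below and 5 above. Of all tested genes 29.9% lay below and 29.4% above by CPM, so the regulatory counts were near those of genes at large. No such figure over all genes was worked out for the share measure. The regulatory counts differed between the measures. Psma6 lay below Control in CPM and above it in share. Psmb5 took 2.15 ± 0.0926% of member counts in AKG libraries and 3.42 ± 0.134% in Control libraries (SD, n = 3 each). Psmc5 took 1.96 ± 0.162% in AKG and 2.94 ± 0.0775% in Control libraries. Psmd4 took 4.93 ± 0.385% in AKG and 3.43 ± 0.101% in Control libraries. The core genes with higher shares were Psma5 and Psma6, and the regulatory genes with lower shares were Psmc4, Psmc5, Psmd12 and Psmd14.

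Levels per length, as the authors' FPKM, differed several-fold between subunits that occur in equal number in the particle. In AKG libraries the core ran from 24.4 FPKM for Psma2 to 99.7 FPKM for Psma7, with a median of 71.0 FPKM over 14 genes, and in Control libraries from 25.2 FPKM for Psma2 to 109 FPKM for Psmb6, with a median of 70.5 FPKM. The regulatory particle without chaperones ran from 20.8 FPKM for Psmd14 to 111 FPKM for Psmc3 in AKG libraries, with a median of 44.2 FPKM over 17 genes. In Control libraries it ran from 15.2 FPKM for Psmd11 to 92.7 FPKM for Psmc3, with a median of 35.2 FPKM. Psmb6 thus led the core in Control libraries and stood at 93.4 ± 0.476 FPKM in AKG libraries, below Psma7 at 99.7 ± 2.11 FPKM. The chaperones Psmd5, Psmd9 and Psmd10 had lower levels per length, between 6.18 and 8.81 FPKM in AKG and between 4.28 and 6.2 FPKM in Control libraries. FPKM is scaled to the library total, so differences between groups on this scale carry the shift named above.

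**Figure D4:**
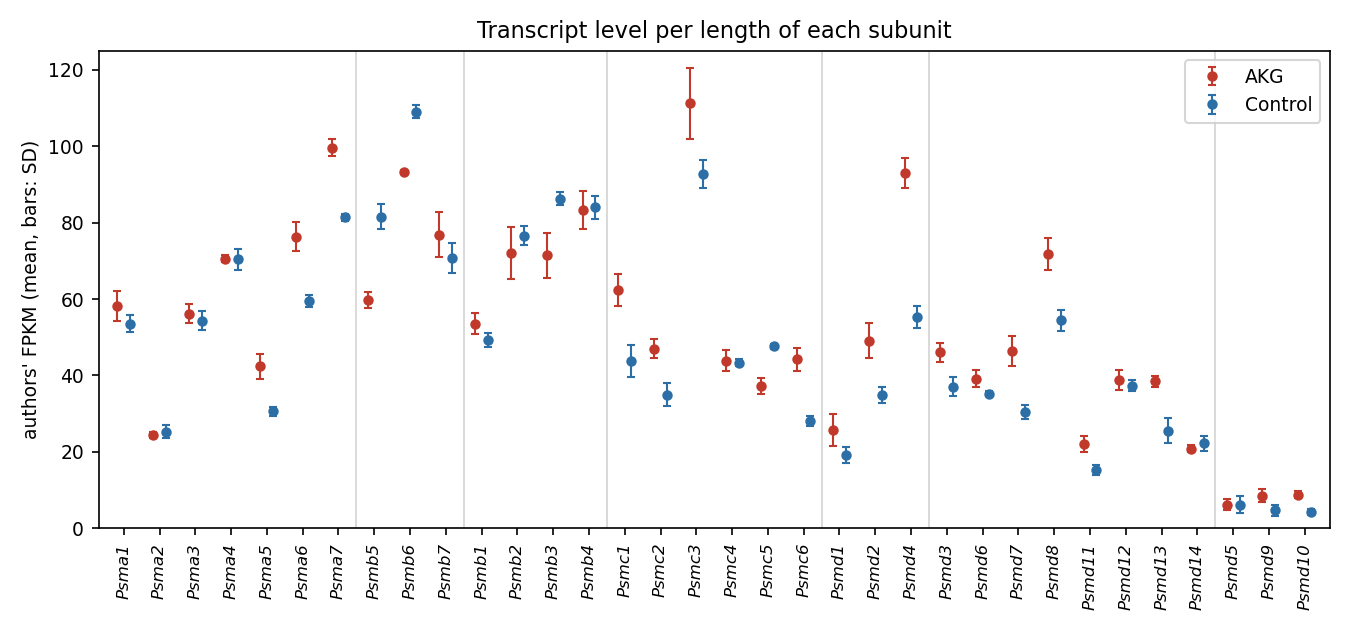
Authors' FPKM of each tested subunit, mean and SD over 3 libraries, AKG left of Control within each pair and classes separated by grey lines in the order α ring, catalytic β, other β, ATPases, other base, lid and assembly chaperones. Psmb5, Psmb6, Psmb3 and Psmc5 are lower in AKG on this scale too, while most regulatory subunits are higher. FPKM is scaled to library totals, and with TMM fewer of them are higher.

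The authors' own fold changes and tests could be set beside these values. A false discovery rate under 0.05 stood beside 19 of the 34 tested members in the authors' deposited table. For 9 of these, Psma1, Psma3, Psma4, Psmb1, Psmb7, Psmc3, Psmc4, Psmd6 and Psmd12, the log2 fold change in the authors' deposited table was above 0 while the fold change from counts with TMM was below 0. For Psma1 the authors' deposited table had a log2 fold change of 0.12 and a false discovery rate of 0.00159, beside -0.33 from counts. For Psma4 the value in the authors' deposited table was near 0, at 0.00367, with a false discovery rate of 2.08e-06. For Psma5 the authors' deposited table had 0.468 with a false discovery rate of 0.895. The deposited false discovery rate thus did not follow the deposited fold change. The 9 opposite signs therefore do not show that the authors' test called a rise. The deposited fold change equals the ratio of mean FPKM. For Psmd5 it was -0.0035 in the authors' deposited table, where counts scaled to the total gave 0.45, so counts and FPKM differed for this gene.

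Genes that work with the constitutive particle were read from lists. Among immunoproteasome genes, Psmb10 fell (19.6 ± 2.09 CPM in AKG and 29.4 ± 1.1 CPM in Control libraries, edgeR adjusted p = 0.000292), and its value with total counts, -0.14, was not past the threshold. Psmb8, which takes the place of Psmb5, stood at 6.63, 6.09 and 16.0 CPM in AKG 1, 2 and 3 and at 8.1, 9.38 and 8.98 CPM in Control libraries. Psmb9 stood at 2.25, 1.06 and 7.71 CPM in AKG libraries and at 3.27, 3.23 and 3.83 CPM in Control libraries. AKG 3 alone was high in both, and neither was past the threshold (edgeR adjusted p = 0.825 and 0.915). Psmb11, the thymus form, had 1 count in AKG 2 and 0 in the other libraries and was not tested. Of 5 genes for other caps and the inhibitor, 2 fell with TMM, the activator genes Psme1 (73.8 ± 5.34 CPM in AKG, 99.3 ± 4.24 CPM in Control) and Psme2 (27.4 ± 0.344 CPM in AKG, 40.3 ± 3.64 CPM in Control), while with total counts none of the list was lower by the same edgeR test and 2 were higher, Psme3 and the inhibitor gene Psmf1. Psme4 had a log2 fold change of -0.16. Over all genes 25.2% fell with TMM and 56.7% were higher with total counts.

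The factors that assemble the core had negative log2 fold changes with TMM in all 5 cases, and 2 fell, while with total counts their median was 0.06 and none passed the threshold in edgeR. Pomp, the maturation factor of the β ring, stood at 36.5, 39.1 and 33.5 CPM in AKG libraries and at 56.8, 54.4 and 58.2 CPM in Control libraries (log2 fold change -0.64, edgeR adjusted p = 2.87e-05, and -0.19 with total counts). Psmg2 fell by 0.38 on the log2 scale, and Psmg1, Psmg3 and Psmg4 had log2 fold changes of -0.28, -0.52 and -0.15 that missed the threshold. Of the regulatory subunits with other names, the small lid subunit Sem1 fell to 42.4 ± 7.78 CPM in AKG libraries, against 67.1 ± 4.5 CPM in Control libraries (edgeR adjusted p = 0.000907, and not past the threshold with total counts, at -0.22 on the log2 scale), and the ubiquitin receptor Adrm1 had a log2 fold change of -0.10. Among 8 regulators of subunit genes, 2 fell and 2 rose with TMM, against 5 risen with total counts. For these and the assembly factors, the shares over all genes were 25.2% fallen and 25.0% risen with TMM. With total counts they were 9.12% and 56.7%. Nfe2l1 stood at 205 ± 20.7 CPM in AKG and 232 ± 19.6 CPM in Control libraries (edgeR adjusted p = 0.115). Nfe2l2 and Mafg fell, with log2 fold changes of -0.39 each, which were 0.06 each with total counts, and the small MAF genes Maff and Mafk rose, by 1.01 and 0.31.

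Other complexes of many subunits gave values beside which the core can be read. Of 14 genes of eIF3, a translation factor built on the same subunit folds as the lid, 8 rose with TMM and all 14 were higher with total counts, and their TMM median was 0.33 (log2). Eif3e, Eif3c, Eif3a and Eif3l led, at 0.61, 0.59, 0.58 and 0.48. Of 9 genes of the COP9 signalosome, the closest relative of the lid, 2 rose with TMM, Cops2 (0.79) and Cops4 (0.39), and 8 with total counts, with a median of -0.12 with TMM. Of 8 genes of the CCT chaperonin, a ring-shaped folding machine, Cct2 and Cct4 rose and Cct3 and Cct8 fell with TMM while 6 were higher with total counts, with a median of -0.12 with TMM. Beside these counts, 25.0% of all genes rose and 25.2% fell with TMM, and 56.7% were higher with total counts. The core median of -0.42 was below each of the medians of these complexes, and the difference between lists was not tested.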

How the data were processed

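The deposited table held estimated counts and FPKM per gene and library. Per library, the authors' expected counts appear rounded: all were whole, and 60 of 0 stood beside an FPKM above 0. The authors' FPKM was scaled to length and library total, and their deposited log2 fold change, p-value and false discovery rate stood beside it. RSEM 1.2.19, HISAT2 2.1.0 and DESeq2 1.20.0 were listed, per the submitters' processing notes. Not given in the sources used here were their roles, the genome build, the strand setting and the handling of reads shared with the 6 RefSeq pseudogenes of members.

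Counts were tested in R 4.3.3 with edgeR 4.0.16 (filterByExpr, minimum count 10 and minimum total 15, TMM, quasi-likelihood test with robust dispersions, Benjamini-Hochberg over 13117 genes). Each SE was obtained as |log2 fold change| over the root of edgeR's F. The procedure was tested on simulated data in which few genes changed, equally in both directions. Such data could not test how the calls depend on the scaling. Rows without a symbol (30, 3.95e-05% of counts) were left out. Alternatives used limma 3.58.1 and DESeq2 1.42.0. Members and lists were chosen with earlier results of these data known. Values per library were given for the highest and lowest fold change of each class, the catalytic subunits, members called against the majority and members that were filtered out, and up to 4 genes of the smallest p were named per list. Ratios of subunit pairs, and genes named beyond this rule, were chosen after values had been seen. Promoters came from RefSeq (GRCm38.p6). Where a gene had several starts, the first listed was used. Of the list of ubiquitin genes, 1 result is not reported here.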

Additional observations from a re-analysis of the deposited data

How the results depend on the processing

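With total counts as the scaling, with limma on log2(FPKM + 1) and with limma on log2(FPKM + 0.1), 4, 4 and 4 members were lower and 18, 17 and 17 higher, the core median log2 fold change was 0.019, 0.026 and 0.027 and the regulatory median 0.44, 0.41 and 0.42, against 17 lower, 3 higher, -0.42 and -0.00 with TMM. Signs turned positive, with values in the same order of settings, for Psma1 (0.12, 0.11, 0.12), Psma3 (0.014, 0.048, 0.049), Psma6 (0.36, 0.35, 0.36), Psma7 (0.29, 0.29, 0.29), Psmb7 (0.12, 0.12, 0.12), Psmb1 (0.12, 0.12, 0.12), Psmc2 (0.43, 0.42, 0.43), Psmc3 (0.23, 0.26, 0.26), Psmc4 (0.020, 0.017, 0.018), Psmd1 (0.43, 0.40, 0.42), Psmd3 (0.33, 0.31, 0.31), Psmd6 (0.15, 0.15, 0.15), Psmd8 (0.40, 0.39, 0.40) and Psmd12 (0.067, 0.054, 0.055), for Psma2 with total counts (0.025) and for Psma4 with FPKM (0.00429 and 0.00435). These settings share the library total as denominator. Among all genes tested in each, 7431, 6722 and 6709 were higher and 1196, 1075 and 1070 lower. With TMM 3281 genes were higher and 3309 lower. The difference between the core and regulatory medians was -0.42 with both TMM and total counts. Leaving out each library in turn gave 16 to 17 members lower and 2 to 4 higher, core medians of -0.44 to -0.38, regulatory medians of -0.01 to 0.02, differences of -0.46 to -0.37 and 5572 to 6474 genes called, against 6590 with all libraries. The core median and the difference were nearest 0 without AKG replicate 3, at -0.38 and -0.37, and the cause was not tested. A setting with AKG 2 alone against the 3 Controls assumed that the lone library varies like the others, so its counts of calls are not given. In AKG 2 the ratio of core to regulatory counts was 0.685, against 0.842 to 0.889 in Control libraries. After group means were taken off log CPM, same-numbered libraries correlated at 0.161, -0.0342 and 0.0489, and differently numbered ones at -0.119 to 0.0670. These values gave no clear sign of pairing by number, which so few libraries cannot exclude. A replicate block gave 17 members lower and 2 higher. With 3 libraries a group, small differences between subunits were not resolved, and reads shared with pseudogenes could not be checked.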

Other observations

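Genes that feed substrates to the proteasome showed no common direction with TMM scaling. Over all genes 25.0% rose and 25.2% fell with TMM, and 56.7% were higher with total counts. Among genes for ubiquitin and its activating enzymes, Ubb (1051 ± 40.3 CPM in AKG and 796 ± 22.1 CPM in Control libraries) and the E1 gene Uba6 rose under both TMM and total-count scaling. Of 7 genes for the segregase VCP, which pulls tagged proteins out of complexes, and its cofactors, Nploc4 (54.1 ± 6.54 CPM in AKG, 35.5 ± 2.09 CPM in Control) and Faf1 rose and Nsfl1c fell with TMM, while 6 were higher with total counts. Vcp itself had a log2 fold change of -0.09.

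Among the shuttle receptors that carry tagged proteins to the base, Ubqln2 (26.4 ± 1.11 CPM in AKG, 18.9 ± 1.64 CPM in Control) and Ubqln1 rose and Ubqln4 fell, of 5 tested, while with total counts 4 were higher. Of 8 enzymes and factors that bind the proteasome, the ubiquitin ligase gene Ube3c (35.8 ± 3.34 CPM in AKG, 27.5 ± 1.14 CPM in Control) and Zfand5 rose and the thioredoxin-like gene Txnl1 fell with TMM, while 7 were higher with total counts. Both lists stand beside 25.0% risen and 25.2% fallen of all genes with TMM, and 56.7% higher with total counts.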
